A study of Mus musculus with 6 samples.

Results

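The genes described here are 34 genes of the amino acid response that is driven by the transcription factor ATF4, among them 12 cytosolic aminoacyl-tRNA synthetases, out of 29955 genes in the deposited expression table. They were chosen by gene symbol from a list that was drawn up with earlier results of these data known, and all 34 were found in the table. Expression was measured by RNA-seq in 3 libraries of Rnf40+/+ and 3 libraries of Rnf40-/- mouse embryonic fibroblasts (MEFs), which are primary cells grown from mouse embryos and were taken here at passage 3. Rnf40 encodes an E3 ligase that places ubiquitin on histone H2B, and the comparison asks which transcripts depend on it. The study's MEFs came from embryos in which loxP sites flank exons 3 and 4 of both Rnf40 copies. These embryos also carried a tamoxifen-inducible Cre recombinase (CreERT2) in the ubiquitously active Rosa26 locus. The study gives no separate origin for the Rnf40+/+ cells. For 5 days the Rnf40-/- cells received 4-hydroxytamoxifen (4-OHT) at 250 nM, followed by another 3 days without it. Whether the Rnf40+/+ cells received 4-OHT is not stated in the sources used here, so loss of Rnf40 and the treatment cannot be told apart. Nothing in the labels says that the libraries of a genotype came from separate embryos or cultures, so the p-values measure the spread among these libraries, which may be technical.

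ATF4 is made when kinases that sense amino acid shortage, misfolded protein, viral RNA or heme lack phosphorylate the translation factor eIF2. Phosphorylated eIF2 slows protein synthesis in general but lets ribosomes pass the short upstream reading frames of the Atf4 transcript. ATF4 then pairs with C/EBP proteins on composite response elements and drives genes for amino acid synthesis and uptake, for the charging of tRNAs, and for feedback on the pathway itself.

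The core of the C/EBP-ATF response element, TGATGNAA, was searched on both strands (TTNCATCA on the other strand) in RefSeq promoter windows of GRCm38.p6, which run from 250 bases before to 50 bases after each annotated start. The cyclic AMP response element TGACGTCA was searched in the same way, and no run of 8 bases can match both. A total of 26 members had a window, and 12 of them (46.2%) held TGATGNAA. The motif was in 1304 of all 32851 windows (3.97%) and in at least one window of 287 of the 9999 tested genes that had one (2.87%). The stretches printed here are those of members called lower (Trib3 and Nupr1), higher (Slc1a4) and neither (Asns, Chac1, Tars and Yars), so that the matched letters can be read beside the expression values that follow. Each is 30 bases long and runs 5′ to 3′ on the strand of the gene, with the match in capitals.

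Trib3 (chr2:152344028-152344057, minus strand): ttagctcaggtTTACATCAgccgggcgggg
Nupr1 (chr7:126625562-126625591, minus strand): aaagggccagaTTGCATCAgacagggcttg
Slc1a4 (chr11:20332699-20332728, minus strand): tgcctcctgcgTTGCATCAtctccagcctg
Asns (chr6:7693214-7693243, minus strand): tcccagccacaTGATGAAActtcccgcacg
Chac1 (chr2:119351038-119351067, plus strand): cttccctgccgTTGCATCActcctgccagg
Tars (chr15:11399655-11399684, minus strand): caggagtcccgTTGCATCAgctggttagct
Yars (chr4:129189895-129189924, plus strand): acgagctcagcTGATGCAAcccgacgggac

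In Asns and Yars the match read TGATGNAA on the strand of the gene, and in the other genes printed it read as the reverse complement. The remaining members with a match were Vldlr, Fgf21, Aars, Gars and Iars. TGACGTCA was found in 1 of the 26 members (3.85%), Ppp1r15a, beside 3.55% of the tested genes with a window and 1.79% of all windows. Aldh1l2, Slc7a5, Slc7a3, Cars, Lars, Mars, Nars and Wars had no window. A match describes letters in the window only, and a window without one says nothing about binding elsewhere.

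Each deposited value is a gene's read number scaled by the size factor of its library, and is called a normalized count. The libraries held between 17053436 and 26344170 reads on genes, and 3 reads, taken as the limit of detection, were worth between 2.40 and 3.58 normalized counts. Genotypes were compared with limma on log2(normalized count + 1) over 16378 genes with enough reads, and a gene is called higher or lower where its p after Benjamini-Hochberg adjustment over these genes was under 0.05. The size factors centre the bulk of genes, and the median log2 fold change of all tested genes was -0.0035, so fold changes are relative to that bulk and a change in total RNA per cell would not appear. Rnf40 itself had normalized counts of 1278, 1195 and 1096 in Rnf40+/+ and of 439, 519 and 487 in Rnf40-/- MEFs, in the direction of the labels. Of the fibroblast markers Col1a1, Col1a2, Col3a1, Pdgfra, Pdgfrb, Thy1, Dcn, Lum, Vim and Fap, none was at 0 in any library. Their summed normalized count was 354664 to 414061 in Rnf40+/+ and 185515 to 199567 in Rnf40-/- libraries. In every Rnf40-/- library 8 of them were lower than in any Rnf40+/+ library, 0 were higher and 2 (Dcn and Lum) overlapped. The sum of 10 macrophage markers was 5636, 6250.1 and 10724 in Rnf40+/+ and 3546 to 3968 in Rnf40-/- libraries, and that of 6 skeletal muscle markers, with Myod1 at 0 throughout, was 4887, 2034 and 1711 against 436 to 498. Most of these sums lay in single genes, Lyz2 for macrophage (3945, 4557 and 7440.3 against 2093 to 2383) and Acta1 for muscle (4449, 1905 and 1592 against 409 to 453). Of the 10 macrophage markers, 4 were lower in every Rnf40-/- library than in any Rnf40+/+ library, 3 (Ptprc, Cd14 and Emr1) were higher and 3 overlapped. The sum of 6 endothelial markers was low, at 146 to 282 in Rnf40+/+ and 234 to 333 in Rnf40-/- libraries. By the same comparison 3 of these (Pecam1, Cdh5 and Kdr) were higher, 1 (Emcn) was lower and 2 overlapped. The part of these differences in the results was not tested, and in bulk RNA fewer cells of a type and less RNA per cell cannot be told apart.

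Of the 34 members, 33 had enough reads to be tested. In Rnf40-/- MEFs 18 were lower and 4 were higher, while 11 did not pass the threshold in either direction. That is 54.5% of the tested members lower and 12.1% higher, beside 24.1% lower and 23.3% higher across all tested genes. The median log2 fold change of the members was -0.37. The libraries of the genotypes did not overlap for 25 of the 33 members, against 56.5% of all tested genes. The study's own criteria ask for a log2 fold change beyond 1 in either direction, an unadjusted p under 0.05 and a mean of more than 15. The study used them with DESeq, whereas here they were applied to the limma fit. By these limits 5 members were lower and 0 were higher, against 5.7% and 4.25% of all tested genes. These 5 were Atf5, Trib3, Phgdh, Mthfd2 and Aldh1l2. Phgdh passed the limit of 1 narrowly, with a log2 fold change of -1.006, and Sars (-0.999), Psph (-0.974) and Atf4 (-0.961) lay just outside it. Taken by role, all 5 transcription factors and regulators and all 6 enzymes of serine synthesis and one-carbon metabolism were lower. The synthetases were divided, with 5 lower, 2 higher and 5 not called out of 12.

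**Figure D1:**
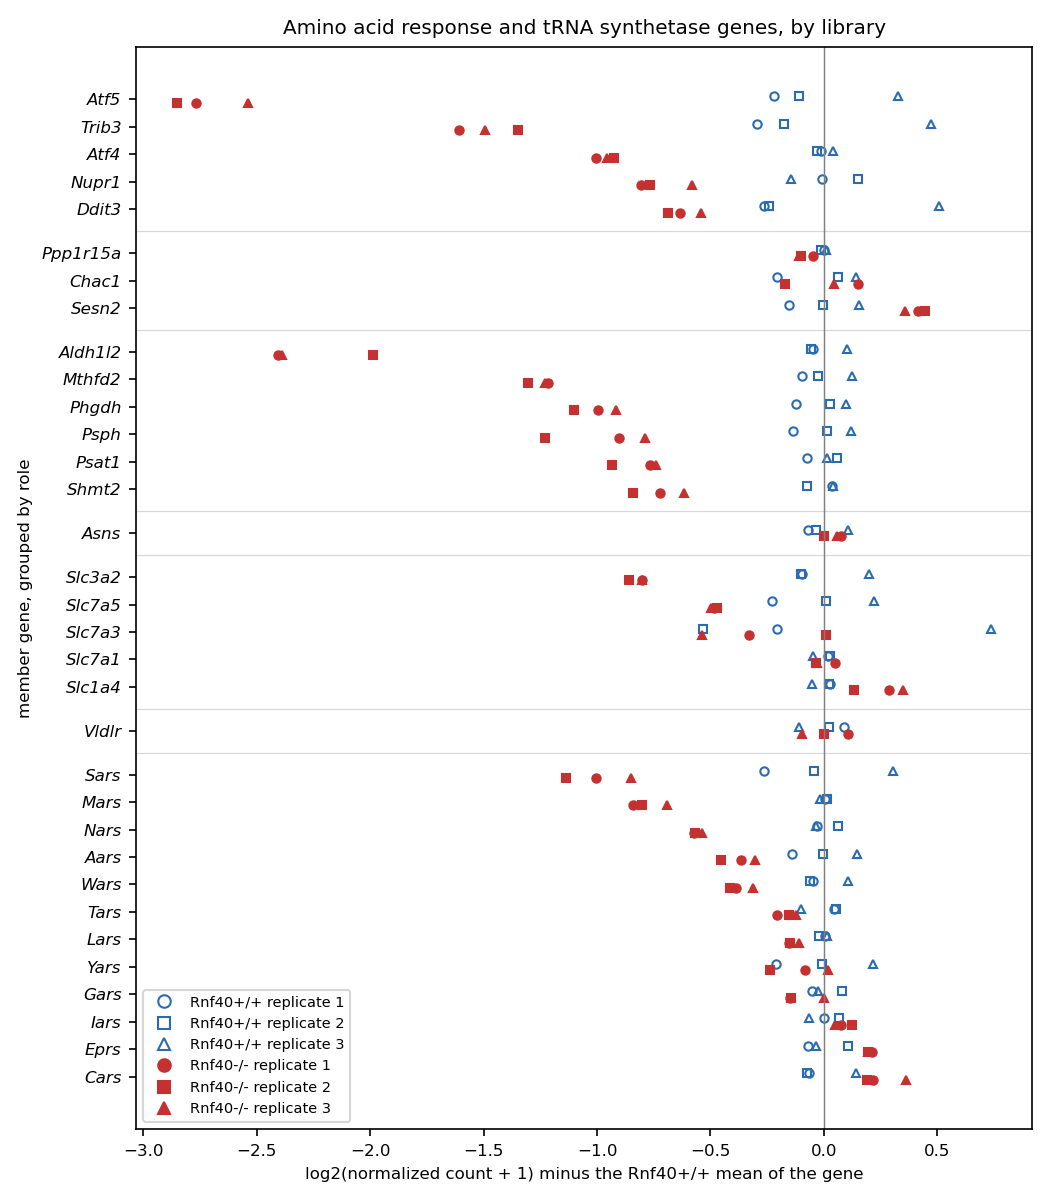
Each point is 1 library's log2(normalized count + 1) of a tested member minus the mean of the 3 Rnf40+/+ libraries of that gene, with open blue symbols for Rnf40+/+ and filled red symbols for Rnf40-/- and members grouped by role. The red symbols lie left of the blue ones for all 5 regulators and all 6 serine and one-carbon enzymes, while they spread to both sides of the line among the 12 synthetases and the 5 transporters.

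Atf4 encodes the factor that gives the response its name, and its mm9 position is chromosome 15, 80085614 to 80087970, on the plus strand. Its normalized counts were 7334, 7243 and 7587 in Rnf40+/+ and 3685, 3891 and 3808 in Rnf40-/- libraries. Both triplets were narrow and far apart, and 51.4% of the Rnf40+/+ mean was left in Rnf40-/- MEFs. The log2 fold change was -0.96 (SE 0.06, adjusted p = 1.89e-07 by limma with Benjamini-Hochberg adjustment). Counted per kilobase of exon, Atf4 had the highest Rnf40+/+ level of all members, at 4285 normalized counts per kilobase, followed by Nars at 3047, Gars at 2763 and Atf5 at 2662. In Rnf40-/- MEFs the level per kilobase of Atf4 was 2201, below that of Gars at 2584, and Atf5 had dropped from rank 4 to rank 19. The levels are RNA levels, and the translation of Atf4, which is where eIF2 acts on it, was not measured.

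Atf5, a close relative of ATF4 that responds to the same kind of stress and has its own upstream reading frames, showed the largest fall of the tested members. Its normalized counts were 4499, 4843 and 6568 in Rnf40+/+ and 768, 723 and 898 in Rnf40-/- libraries. The lowest Rnf40+/+ library was thus far above the highest Rnf40-/- library, and Rnf40+/+ replicate 3 stood above the other two. The log2 fold change was -2.72 (SE 0.13, adjusted p = 2.51e-08 by limma with Benjamini-Hochberg adjustment), which left 15.02% of the Rnf40+/+ mean. Without Rnf40+/+ replicate 3 it was -2.56. The mm9 position of Atf5 is chromosome 7, 52067627 to 52072028, on the minus strand, and 82 nucleotides of its exons overlap exons of Nup62 and Il4i1 on the other strand. The library kit keeps the strand, but whether counting used it is not given in the sources used here. Nup62 had 908, 1038 and 974 normalized counts in Rnf40+/+ and 767, 638 and 748 in Rnf40-/- libraries, and Il4i1 had between 24.0 and 45.4 in all 6.

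Trib3 encodes a pseudokinase that is induced by ATF4 and holds it back. It had 525, 571 and 895 normalized counts in Rnf40+/+ and 211, 253 and 228 in Rnf40-/- libraries. The genotypes did not overlap, although Rnf40+/+ replicate 3 was again well above the other two. The log2 fold change was -1.48 (SE 0.17, adjusted p = 2.23e-05 by limma with Benjamini-Hochberg adjustment), and -1.25 without Rnf40+/+ replicate 3. Nupr1, a small chromatin-associated stress protein, had 2869, 3205 and 2606 normalized counts against 1649.8, 1694 and 1925. Here Rnf40+/+ replicate 3 was the lowest of its group, and the log2 fold change was -0.72 (SE 0.09, adjusted p = 3.6e-05 by limma with Benjamini-Hochberg adjustment).

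Ddit3 encodes CHOP, the C/EBP family partner of ATF4 in prolonged stress. Its normalized counts were 1649, 1672 and 2812 in Rnf40+/+ and 1274, 1230.5 and 1361 in Rnf40-/- libraries. The groups did not overlap, and Rnf40+/+ replicate 3 was far above the other two libraries of its genotype. The log2 fold change was -0.62 (SE 0.16, adjusted p = 0.00729 by limma with Benjamini-Hochberg adjustment) with all libraries and -0.37 without that library, where the gene was still called lower. Ddit3 lies on chromosome 10 of mm9 from 126727830 to 126733344 and shares 68 nucleotides with the end of Mars, a member on the opposite strand, which was lower too. Shmt2, another member that was lower, follows on the same chromosome at 126954195 to 126959491.

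Of the 3 members grouped here as feedback and stress effectors, 1 was higher and none was lower. Trib3, which also acts back on ATF4, is counted among the regulators. Sesn2, whose product senses leucine and restrains mTORC1, rose from 977, 1083 and 1211 normalized counts in Rnf40+/+ to 1447, 1482 and 1391 in Rnf40-/- libraries. Every Rnf40-/- library was above every Rnf40+/+ library, with a log2 fold change of 0.41 (SE 0.08, adjusted p = 0.00174 by limma with Benjamini-Hochberg adjustment), the largest rise among the members. Chac1, which encodes a glutathione-degrading enzyme, had 374, 451 and 475 normalized counts against 478, 383 and 445. These overlapped, and the 95% interval of the log2 fold change, -0.25 to 0.26, held values on both sides of 0. Ppp1r15a encodes GADD34, which brings a phosphatase to eIF2. It had 1471, 1457 and 1482 normalized counts against 1422, 1370.3 and 1363, and although the groups did not overlap the log2 fold change was -0.09 (95% interval -0.22 to 0.05) and was not called.

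The enzymes that make serine and use it as a source of one-carbon units were lower without exception among the members. Phgdh, which opens the serine pathway from a glycolytic intermediate, had 4406, 4886 and 5139.6 normalized counts in Rnf40+/+ and 2403, 2238 and 2539.9 in Rnf40-/- libraries. The Rnf40-/- mean was 49.8% of the Rnf40+/+ mean, and the log2 fold change was -1.01 (SE 0.08, adjusted p = 7.81e-07 by limma with Benjamini-Hochberg adjustment). A Phgdh-like gene, Gm6756, shares a stretch of 298 nucleotides at 97.0% identity with Phgdh, and reads could be split between them. It had from 39.8 to 101 normalized counts over the 6 libraries. Psat1, the aminotransferase of the second step, had 2343, 2568 and 2484 normalized counts against 1446, 1288 and 1474, and Psph, the phosphatase that releases serine, had 583, 647 and 696 against 342, 272 and 370.1. The log2 fold changes were -0.81 (SE 0.07) for Psat1 and -0.97 (SE 0.12) for Psph, and no library of one genotype reached into the other. Rnf40-/- replicate 2 was the lowest library for all 3 genes of serine synthesis.

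Mitochondria take one-carbon units from serine through Shmt2, which splits it into glycine and a folate-bound unit, and oxidise that unit with Mthfd2. Shmt2 had 2043, 1894 and 2049.9 normalized counts in Rnf40+/+ and 1208, 1114 and 1302 in Rnf40-/- libraries. Mthfd2 had 1349, 1417 and 1571 against 621, 583 and 615. The separation was wider for Mthfd2, with 41.9% of the Rnf40+/+ mean left, than for Shmt2, with 60.5% left. The log2 fold changes were -1.25 (SE 0.08) for Mthfd2 and -0.73 (SE 0.08) for Shmt2. Aldh1l2, the mitochondrial enzyme that burns formyl-folate to carbon dioxide and yields NADPH, fell the most of these enzymes. It had 856, 853 and 952 normalized counts in Rnf40+/+ and 166, 222 and 168 in Rnf40-/- libraries, or 20.9% of the Rnf40+/+ mean, with a log2 fold change of -2.26 (SE 0.12, adjusted p = 6.59e-08 by limma with Benjamini-Hochberg adjustment).

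A wider list of 15 genes of serine, glycine and folate metabolism held 7 (46.7%) that were lower and 4 (26.7%) that were higher. Across all tested genes 24.1% were lower and 23.3% higher. The median log2 fold change of the list was -0.28. Shmt1, the cytosolic counterpart of Shmt2, was among those lower, at -1.07. Its largest called rises were in Gldc, a subunit of the glycine cleavage system with few reads, at 1.75 and in Mthfd1, the cytosolic enzyme that interconverts folate-bound one-carbon units, at 0.81. Mthfd1 had 1070.0, 968 and 898 normalized counts in Rnf40+/+ and 1791, 1610.3 and 1723 in Rnf40-/- libraries, so that it rose while all 3 mitochondrial members fell. Of the other mitochondrial genes of folate metabolism in the list, the enzymes Mthfd1l and Mthfd2l were lower, at -0.86 and -0.76, the glycine cleavage enzyme Amt was at -0.67 and was not called, and Slc25a32, which carries folate into mitochondria, was higher, at 0.62. These genes are named because of their compartment, after their values had been seen. Among the cytosolic enzymes of the list Aldh1l1, the counterpart of Aldh1l2, was low, at 22.7, 11.2 and 48.7 normalized counts against 64.2, 33.4 and 43.4, and its log2 fold change of 0.93 was not called.

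**Figure D2:**
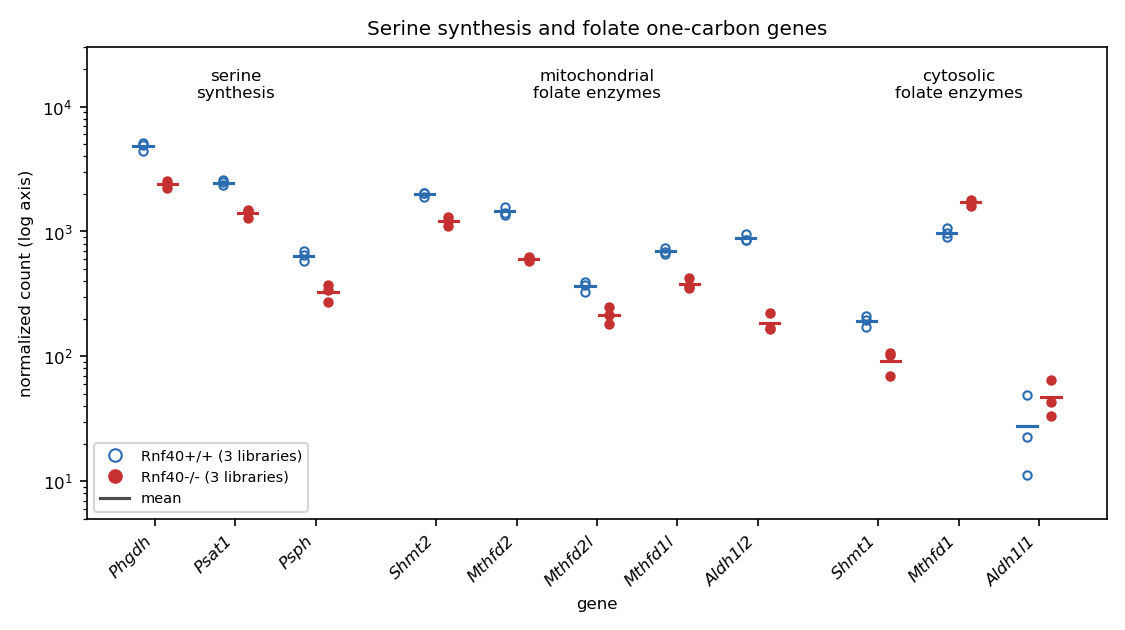
Points are normalized counts of single libraries on a log axis, open blue for Rnf40+/+ and filled red for Rnf40-/-, and bars are the means of the 3 libraries of a genotype. The 3 serine synthesis genes and the 5 mitochondrial folate genes plotted were lower in Rnf40-/- MEFs, whereas among the cytosolic folate genes Shmt1 was lower, Mthfd1 was higher and Aldh1l1 overlapped.

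Asparagine synthetase (Asns), which is widely used as a readout of the amino acid response, did not share the fall. Its normalized counts were 2697, 2766 and 3053 in Rnf40+/+ and 2986, 2839.8 and 2947 in Rnf40-/- libraries. The Rnf40-/- libraries lay within the Rnf40+/+ range, and the log2 fold change of 0.04 had a 95% interval of -0.10 to 0.19. This interval has no value in common with those of Atf4 (-1.09 to -0.83), Phgdh (-1.17 to -0.84) or Mthfd2 (-1.42 to -1.08).

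Amino acid transporters moved in both directions. Slc3a2 and Slc7a5 encode the heavy and the light chain of one exchanger, which brings leucine and other large neutral amino acids into the cell. Slc3a2 had 3293, 3281 and 4046 normalized counts in Rnf40+/+ and 2018, 1944 and 2022 in Rnf40-/- libraries, with a log2 fold change of -0.82 (SE 0.08, adjusted p = 8.3e-06 by limma with Benjamini-Hochberg adjustment). Slc7a5 had 1457, 1721 and 1992 against 1223, 1233 and 1211, with a log2 fold change of -0.48 (SE 0.10, adjusted p = 0.00156 by limma with Benjamini-Hochberg adjustment). Both chains were lower in every Rnf40-/- library than in any Rnf40+/+ library, and for both Rnf40+/+ replicate 3 was the highest. Slc1a4, a carrier of alanine, serine and cysteine, rose slightly, from 1238, 1236 and 1171 to 1481, 1331 and 1547, with a log2 fold change of 0.26 (SE 0.07, adjusted p = 0.014 by limma with Benjamini-Hochberg adjustment).

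The cationic amino acid carriers were not called. Slc7a1, the main arginine and lysine carrier of many cells, had 1238, 1245 and 1181 normalized counts against 1262, 1191 and 1196, and the 95% interval of its log2 fold change was -0.15 to 0.14. Slc7a3, a related carrier, was low at 50.2, 39.8 and 97.4 against 45.9, 58.4 and 39.7, with an interval of -0.96 to 0.39, and Rnf40+/+ replicate 3 stood apart from the other libraries. Its log2 fold change was -0.29 with all libraries and 0.08 without Rnf40+/+ replicate 3. Transcripts of Slc3a2 and Slc7a1 contain stretches of 50 to 199 nucleotides that also occur in transcripts of 103 and 392 other genes, which reads could share. A list of 14 other amino acid transporters held 4 (28.6%) that were higher and 3 (21.4%) that were lower, near the 23.3% and 24.1% of all tested genes. Among the called genes, Slc38a9, the lysosomal arginine sensor, and Slc7a7 rose the most, by 0.78 and 0.49 on the log2 scale. Slc43a1 and Slc1a3 fell the most of the called genes, with log2 fold changes of -1.14 and -0.73. Slc43a1 was low, with 19.1, 38.8 and 31.1 normalized counts in Rnf40+/+ and 13.3, 16.7 and 8.5 in Rnf40-/- libraries (SE 0.38).

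The last pair of members are targets outside amino acid metabolism. Vldlr, the receptor for very low density lipoprotein, had 1121, 1069.7 and 976 normalized counts in Rnf40+/+ and 1136, 1053 and 985 in Rnf40-/- libraries, which overlapped almost fully. Fgf21, a secreted metabolic hormone made mainly by liver, had 2, 1 and 17 reads in Rnf40+/+ and 1, 0 and 0 reads in Rnf40-/- libraries. It had too few reads to be tested, and only Rnf40+/+ replicate 3 was above the limit of 3 reads.

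Aminoacyl-tRNA synthetases join each amino acid to its tRNA, and each member serves 1 amino acid in the cytosol except Eprs, which charges tRNAs for both glutamate and proline. The serine enzyme Sars showed the largest fall, from 3899, 4550.2 and 5794 normalized counts in Rnf40+/+ to 2332, 2128 and 2595 in Rnf40-/- libraries. The groups were well apart, though the Rnf40+/+ libraries differed among themselves, and the log2 fold change was -0.999 (SE 0.12, adjusted p = 3.92e-05 by limma with Benjamini-Hochberg adjustment), or -0.85 without Rnf40+/+ replicate 3. The methionine enzyme Mars had 1776, 1787 and 1746 normalized counts against 986, 1015 and 1094, with a log2 fold change of -0.78 (SE 0.07). Its Rnf40+/+ libraries agreed closely, unlike those of Ddit3, with which it shares an exon end on the other strand.

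The asparagine enzyme Nars had the highest level per kilobase of annotated exon of the member synthetases in Rnf40+/+ MEFs. It had 7849.7, 8382 and 7830.0 normalized counts against 5392, 5401 and 5524. The log2 fold change of -0.56 (SE 0.06) contrasts with the interval of Asns, which makes the amino acid that Nars loads. The alanine enzyme Aars had 5888, 6472 and 7178 normalized counts against 5039, 4743 and 5253, and the tryptophan enzyme Wars had 1401, 1388 and 1558 against 1107, 1085 and 1164. Both had a log2 fold change of -0.37, with SEs of 0.08 for Aars and 0.07 for Wars. No Rnf40-/- library of these 3 genes reached the lowest Rnf40+/+ library.

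A pair of synthetases rose. The cysteine enzyme Cars had 2258, 2249.6 and 2608 normalized counts in Rnf40+/+ and 2754, 2699 and 3044 in Rnf40-/- libraries, with a log2 fold change of 0.26 (SE 0.08, adjusted p = 0.0161 by limma with Benjamini-Hochberg adjustment). Eprs had 5743, 6494 and 5879.9 against 6996, 6896 and 6908, with a log2 fold change of 0.20 (SE 0.07, adjusted p = 0.0234 by limma with Benjamini-Hochberg adjustment). These rises were small, and together with that of Slc1a4 they were the member calls that were lost when single libraries were left out. Without Rnf40-/- replicate 3 Sesn2 alone was higher, and without Rnf40-/- replicate 1 Sesn2 and Cars were. Fewer of all tested genes were called higher in these fits as well, 19.4% and 18.2%, against 23.3% with all libraries.

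The other 5 synthetases were not called. Those for leucine (Lars) and threonine (Tars) came close, with log2 fold changes of -0.14 and -0.16 and adjusted p of 0.074 and 0.0612 by limma with Benjamini-Hochberg adjustment, and their genotypes did not overlap. Lars had 2883, 2831 and 2896 normalized counts against 2584, 2591 and 2659, and Tars had 3733, 3752 and 3368 against 3130.4, 3249 and 3316. Tars was called lower, at -0.21, without Rnf40+/+ replicate 3, its lowest Rnf40+/+ library. The glycine enzyme Gars (6358, 6976 and 6476 against 5953, 5974 and 6604), the isoleucine enzyme Iars (3442, 3603 and 3285 against 3628, 3755 and 3559.6) and the tyrosine enzyme Yars (1527, 1763 and 2060.3 against 1672, 1503 and 1793) overlapped between genotypes.

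Of the 8 cytosolic synthetase genes that are not members, 4 (50%) were lower and 1 (12.5%) was higher, beside 24.1% and 23.3% of all tested genes. Their median log2 fold change was -0.13, beside -0.15 for the 12 members. Vars and Rars, for valine and arginine, fell the most, with log2 fold changes of -0.48 and -0.37, and Kars, for lysine, rose by 0.23. A further list held 17 synthetases of the mitochondria, which are encoded by separate genes apart from a few shared ones. Of these, 2 (11.8%) were lower and 2 (11.8%) were higher. Aars2 and Vars2 were lower, at -0.37 and -0.31, and Mars2 and Hars2 were higher, at 0.51 and 0.33. Lars2 stood apart from the rest of the list, with normalized counts from 24087 to 321117 and an SE of 0.71 on the log2 scale. Of the 3 scaffold proteins of the multi-synthetase complex, Aimp2 was lower, at -0.28.

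**Figure D3:**
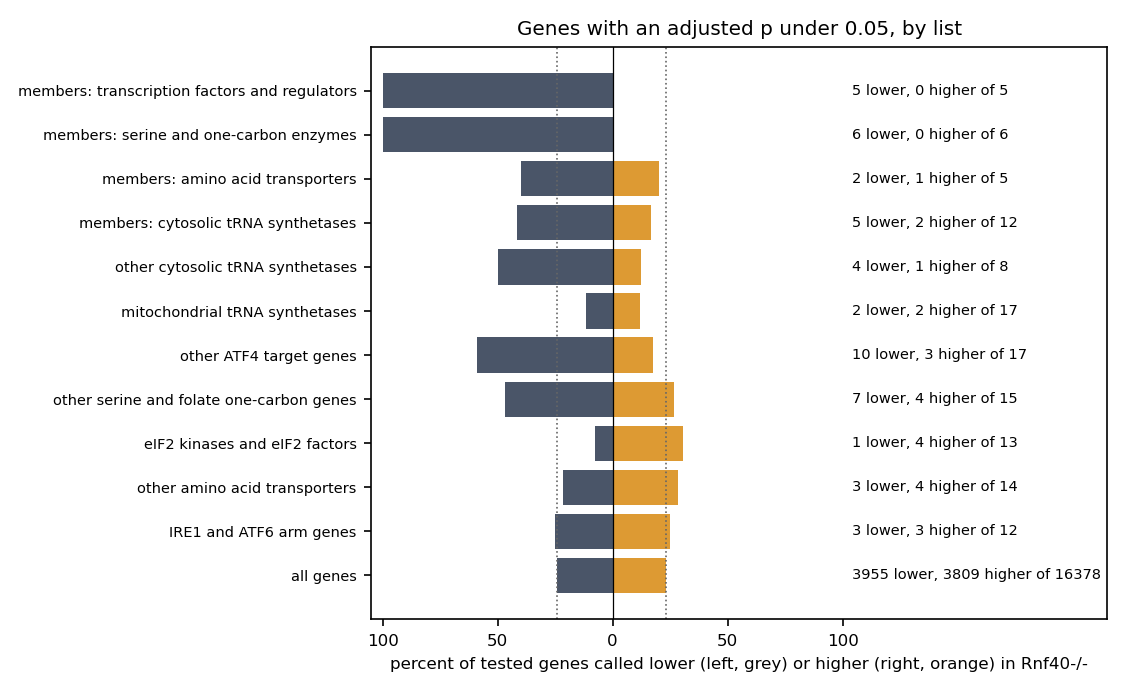
Bars give the percent of the tested genes of a list that were called lower (grey, to the left) or higher (orange, to the right) in Rnf40-/- MEFs by an adjusted p under 0.05, with counts at the right and dotted lines at the percentages of all 16378 tested genes. The regulators and the serine and one-carbon enzymes reach 100% lower, while 24.1% of all tested genes were lower. Member roles not plotted are feedback and stress effectors (3 tested), asparagine synthesis (1 tested), and the lipoprotein receptor and secreted factor (1 tested). In each of these roles 0 genes were lower, and 1 feedback and stress effector (Sesn2) was higher.

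Among 17 further genes known as ATF4 targets, 10 (58.8%) were lower and 3 (17.6%) were higher, beside 24.1% and 23.3% of all tested genes. Their median log2 fold change was -0.37. Pck2, the mitochondrial enzyme that makes phosphoenolpyruvate, had 1976, 2215 and 2880.4 normalized counts in Rnf40+/+ and 665, 726 and 728 in Rnf40-/- libraries, and a log2 fold change of -1.72 (SE 0.12, adjusted p = 3.47e-07 by limma with Benjamini-Hochberg adjustment). Stc2, a secreted glycoprotein, was lower by a log2 fold change of -1.96 with a wide SE of 0.52, since Rnf40+/+ replicate 1 had 465 normalized counts and the other Rnf40+/+ libraries had 72.4 and 93.4. Aldh18a1 and Pycr1, which make proline, were both lower, with log2 fold changes of -0.90 and -0.92, and were picked out after their values had been seen. The largest rises were in the stress cytokine Gdf15 and the stress factor Atf3, a relative of ATF4. Gdf15 had 59.7, 40.8 and 85.4 normalized counts against 134, 141 and 143, with a log2 fold change of 1.21. Atf3 had 122, 121 and 114 against 219, 226 and 261, with a log2 fold change of 0.97.

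Of 13 genes that act upstream of ATF4, for eIF2 kinases, eIF2 subunits, the exchange factor eIF2B and the constitutive eIF2 phosphatase partner, 4 (30.8%) were higher and 1 (7.69%) was lower, beside 23.3% and 24.1% of all tested genes, with a median log2 fold change of 0.16. Eif2ak3, which encodes the endoplasmic reticulum kinase PERK, had 1027, 1238 and 1074 normalized counts in Rnf40+/+ and 1389, 1606 and 1432 in Rnf40-/- libraries, a log2 fold change of 0.41. Eif2b1, a subunit of eIF2B, rose by 0.32, and Eif2b3, another subunit, was lower, at -0.28. The other arms of the unfolded protein response, IRE1 and ATF6, were covered by 12 genes, of which 3 (25%) were lower and 3 (25%) higher. Hsp90b1 and Xbp1 were lower, at -0.75 and -0.70, Sdf2l1 and Dnajc3 were higher, each by 0.30, and the chaperone Hspa5 was at 0.02 and was not called. The phosphorylation of eIF2 was not measured here.

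Rnf40+/+ replicate 3, the deepest library, was the highest Rnf40+/+ library for 22 of the 33 tested members (66.7%), against 34.3% of all tested genes. On the log2 scale the median difference between it and the mean of the other Rnf40+/+ libraries was 0.16 over the members and -0.02 over all tested genes. The difference was 0.49 for Atf5, 0.76 for Ddit3, 0.71 for Trib3, 0.46 for Sars and 1.10 for the low Slc7a3. The same library had the largest sums of macrophage and of fibroblast markers, and the smallest sum of endothelial markers. Among the Rnf40+/+ libraries it also had the largest sum of epithelial markers and the smallest sum of skeletal muscle markers. The part of these differences in the members' values was not tested. Without Rnf40+/+ replicate 3, 19 members were lower and 4 were higher, and the median log2 fold change of the members was -0.32. Across all genes tested in that fit 23.3% were lower and 22.8% higher. By the study's criteria 4 members were then lower, as Phgdh moved to -0.96.

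Read against the promoter stretches shown at the start, members with TGATGNAA had a smaller median fall than those without it. Trib3 holds the motif and still had the largest fall after Atf5 among the tested members with a window. The end of the Trib3 window was not found in an annotated transcript of the gene, whereas for every other member with a match it was. Aldh1l2, at -2.26, had no window. The motif was in the window of 3 of 13 members called lower, of 1 of 3 called higher and of 8 of 10 that were not called or not tested. Among tested members the median log2 fold change was -0.10 for the 11 with the motif, from -1.48 (Trib3) to 0.26 (Slc1a4), and -0.82 for the 14 without it, from -2.72 (Atf5) to 0.41 (Sesn2). Of the synthetases with a window, 5 of 7 held the motif, and of these Aars alone was lower. The remaining 2, Sars and Eprs, had no match, and they were lower and higher, respectively. No serine or one-carbon member with a window held the motif. These are descriptions of short windows around annotated starts, and elements further away or inside the genes were not searched.

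**Figure D4:**
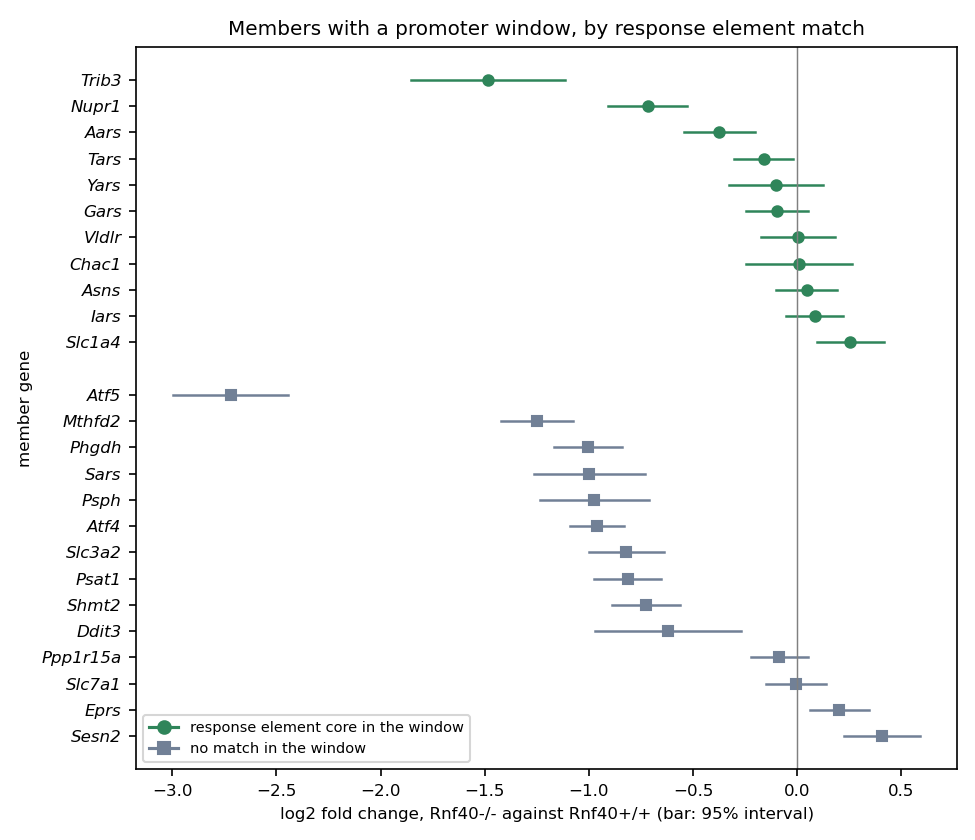
Symbols are log2 fold changes of tested members (Rnf40-/- against Rnf40+/+) with 95% intervals, green circles for those whose promoter window holds the letters TGATGNAA on either strand and grey squares for those without a match. Of the 11 members with a match, 8 lie from -0.37 (Aars) to 0.08 (Iars), while 10 of the 14 without one lie at -0.62 (Ddit3) or further left.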

How the data were processed

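RNA was sequenced from 3 Rnf40+/+ and 3 Rnf40-/- MEF libraries made with a directional kit. The authors aligned the reads to mm9 and deposited 1 signal per gene and library, the count normalized with DESeq. The submitters' processing notes name Bowtie2 (version 2.1.0) and DESeq (version 1.14.0), while the counting tool and its strand setting are not given in the sources used here. In each library 100% of the deposited values came out as whole reads (within 0.01 read) once divided by what 1 read was worth, which returned the reads behind them. Depth was 17053436 to 26344170 reads per library, and a gene with few reads carries a larger counting error.

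The test planned for normalized values was used, limma (version 3.58.1) with a trended prior on log2(normalized count + 1) and genotype as the sole term, adjusted over 16378 genes that passed filterByExpr of edgeR (version 4.0.16). The added 1 shrinks fold changes of low genes. Values are means, SEs of limma and 95% intervals. With 3 libraries a group, no single-gene permutation test was run. Members, gene lists and tests were chosen with earlier results of these data known. Named genes are all members, the 2 largest called rises and falls of each related list, and Rnf40, and Mthfd1l, Mthfd2l, Amt, Slc25a32, Aldh1l1, Aldh18a1, Pycr1, Hspa5, Lars2 and the genes that share sequence with members were named after their values were seen. Among these, 1 gene and 1 promoter stretch are not reported here. Alternatives were pseudocounts of 0.1 and 10, other gene filters, TMM, upper-quartile and DESeq2 (version 1.42.0) size factors, the DESeq2 Wald and edgeR quasi-likelihood tests on the recovered reads, a replicate block and each library left out. The procedure was also run on simulated reads with the same noise setting for every library. That run was a check of the code and does not bear on the results. Libraries of a genotype differed by more than counting noise, so none was a copy of another. That does not show that they came from separate cultures. Positions are from mm9, promoter windows from RefSeq on GRCm38.p6, and shared transcript stretches from BLAST (version 2.17.0). R was version 4.3.3. The other data types of the study were not analysed here.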

Additional observations from a re-analysis of the deposited data

How the results depend on the processing

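The members' fold changes were recomputed under 16 alternatives, which gave 528 values, of which 519 kept their side of the threshold, and 0 of the called values reversed. Uncalled values near 0 could change sign. The other 9 all came from leaving out 1 library. In 8 of them Eprs, Cars or Slc1a4 was no longer called higher, and in 1 Tars was called lower, at -0.21, without Rnf40+/+ replicate 3. With each library left out, the members called higher ranged from 1 to 4 (2 without Rnf40-/- replicate 1 and 1 without Rnf40-/- replicate 3), those called lower from 18 to 19, those lower by the study's criteria from 4 to 7, and the members' median log2 fold change from -0.48 (without Rnf40+/+ replicate 2) to -0.32. Over the related lists 15 to 23 genes were higher and 24 to 33 lower. Across all tested genes these fits called 18.2% to 22.8% higher and 19.9% to 23.3% lower. With all libraries the shares were 23.3% and 24.1%. The cause of these moves was not tested. Under the replicate block 18 members were lower and 4 higher, and no member's call changed. The block called 25.6% of all tested genes lower and 24.6% higher. Same-numbered libraries of the genotypes correlated at 0.035, 0.0026 and 0.061 in their deviations from the group means. Values this low show no pairing by replicate number, but they cannot exclude that same-numbered libraries shared an embryo or culture. The DESeq2 Wald test and the edgeR quasi-likelihood test on the recovered reads each called 18 members lower and 4 higher, and 6 lower by the study's criteria. Of all tested genes the DESeq2 test called 22.8% lower and 21.8% higher, and the edgeR test 24.1% lower and 23.5% higher. Fgf21 had too few reads to be tested. Slc7a3, not called, was at -0.29 with all libraries and at 0.08 without Rnf40+/+ replicate 3.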
